A study of Mus musculus with 9 samples.

Results

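The authors gave the label EC3 to 365 of the 10186 thyroid cells of the study (3.58% of all cells). Every cell with that label in their annotation was taken, and all of them came from 1 of their clusters, cluster 15. EC3 was set mainly against the other endothelial labels, EC1 with 1603 cells, EC2 with 409 cells and EC4 with 1046 cells. The cells came from thyroids of male C57BL/6 mice, given as 10 to 12 weeks of age in the study's design text and as 10 to 14 weeks in its treatment protocol. Each of the 9 samples was a pool of thyroids from 6 mice, digested to single cells and profiled by droplet-based 3' RNA sequencing 7 days after an intraperitoneal injection. The 3 pools called RW received an antibody against ragweed at 40 mg/kg as isotype control. The 3 pools called aJ1aJ2 received blocking antibodies against the Notch ligands Jag1 and Jag2 at 20 mg/kg each, and the 3 pools called aN1aN2 received blocking antibodies against the receptors Notch1 at 5 mg/kg and Notch2 at 10 mg/kg. The antibodies reached the whole animal, so a change that begins in EC3 and a change that begins elsewhere cannot be told apart.

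Blood runs from arteries through capillaries into venules and veins, while lymphatic vessels carry tissue fluid and migrating immune cells back toward the veins. Lymphatic endothelium depends on the transcription factor Prox1 and secretes the chemokine Ccl21a, which guides dendritic cells and T cells into the vessel. Signalling from the endothelial ligand Dll4 to Notch1, read out by targets such as Hey1, favours arterial over venous identity and restrains sprouting driven by VEGF, while endothelial Jag1 can oppose Dll4 in sprouting. In the thyroid a dense mesh of fenestrated capillaries surrounds each follicle, and arteries, venules and lymphatic vessels form the smaller remainder of the vessel bed.

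EC3 held between 17 cells (aJ1aJ2 1) and 71 cells (aJ1aJ2 3) per pool, and 2841109 unique molecular identifiers (UMIs, counted transcripts) in all. The median was 4624 UMIs per cell, and cells ranged from 509 to 120349 UMIs. The summed EC3 UMIs per pool were 392327 to 525878 in RW, 247023 to 434567 in aJ1aJ2 and 129251 to 164962 in aN1aN2, so aN1aN2 levels rest on the fewest transcripts. Internal sample numbers in the titles fall into 3 ranges, called series A (RW 3, aJ1aJ2 1), series B (RW 1, RW 2, aJ1aJ2 3, aJ1aJ2 4) and series C (all aN1aN2 pools). Receptor blockade and series C therefore cannot be told apart. Libraries shared 15 cell barcodes, and 2 EC3 cells carried such a barcode.

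Of the 365 cells, 4 had under 1 UMI per 1000 from 8 pan-endothelial genes, against a median of 6.63 per 1000 over EC3 and 7.33 over EC1. The largest, in RW 2, held 120349 UMIs, which was 22.9% of all EC3 UMIs of that pool. It had 0 UMIs of the endothelial junction genes Pecam1 and Cdh5, 813 of the basal keratin gene Krt5, 241 of Krt14 and 707 of the MHC class II chain Cd74. All EC3 UMIs of the keratinocyte gene Krtdap and of Krt17 came from this cell. The other 3 were a cell of RW 3 with UMIs of the contractile genes Acta2 and Myh11 and 2 cells of aJ1aJ2 4, 1 with matrix genes (Dcn, Col3a1) and 1 with 47 UMIs of Cd74. The cells were kept, since the authors labelled them EC3. Some of the results they change, but not all, are also given without them.

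In identity, EC3 carried lymphatic and venule genes at higher levels than the other endothelial labels. Levels here are CPM, a gene's UMIs relative to all UMIs of the summed cells of a label and scaled to the usual common total. Prox1 stood at 125 CPM in EC3 against 1.09 CPM over EC1, EC2 and EC4 together. Mmrn1, a secreted protein of lymphatic endothelium, stood at 932 CPM against 4.22 CPM. The chemokine gene Ccl21a (ENSMUSG00000094686, GRCm38 chromosome 4, 42772860 to 42773993, minus strand) stood at 3070 CPM against 6.18 CPM. Von Willebrand factor, Vwf, which venules and veins store for platelet capture, stood at 380 CPM against 22.6 CPM, and the secreted glycoprotein gene Lrg1 at 639 CPM against 73.8 CPM. EC3 came from a clustering on the expression of these same cells, so none of these differences was tested.

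Across pools with at least 20 cells of a label, these genes separated EC3 from EC1 in every sum but not always from EC2. Mmrn1 ranged from 90.9 to 1194 CPM over 8 EC3 pools with a median of 859 CPM, and reached at most 3.27 CPM in any of 9 EC1 pools and 94.4 CPM in 1 of 7 EC2 pools. Vwf ranged from 228 to 851 CPM in EC3, with a median of 404 CPM, its highest EC1 pool was at 11.4 CPM and its highest EC2 pool at 268 CPM. Lrg1 was less exclusive, at 393 to 2762 CPM in EC3 and 18.2 to 348 CPM in EC1, with the highest EC4 pool at 663 CPM. The lowest Mmrn1 and Prox1 values were both in aN1aN2 2.

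Of 3902 genes with at least 50 CPM in EC3 or in the other endothelial cells, 188 (4.82%) were at least 4-fold higher in EC3. The lymphatic list had 9 of its 12 measured members among them, the venule list 5 of 8 and the arterial list 6 of 9. Lists of other cell types were there too, with 6 of 8 measured mural genes (median fold 9.99, beside 8.01 for the venule and 4.89 for the arterial list) and 3 of 3 measured fibroblast genes (9.28). The list of fenestrated capillary genes had 0 of 11, with a median level 0.200 times that of the other endothelial cells. Plvap, which forms the diaphragms of fenestrae, was at 758 CPM in EC3 and 3995 CPM in EC1. The 10 genes with the largest folds over the other endothelial labels were Ccl21a, Cytl1, Gkn3, Pkhd1l1, Krtdap, Sema3d, Tbx1, Krt17, Gpm6a and Slc45a3. Krtdap and Krt17 owe that place to the RW 2 cell described above. Over all other cells of the thyroid, Mmrn1 was 953-fold higher, the anion channel regulator gene Clca3a1 400-fold, the siderophore-binding gene Lcn2 210-fold and the tyrosine kinase gene Bmx 200-fold.

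The label of venous and lymphatic endothelium covered the data only in part, because arterial genes marked EC3 about as often as venule genes. Sox17, an arterial transcription factor, stood at 394 CPM in EC3 and 80.4 CPM in the other endothelial cells. Sema3g, a semaphorin of arterial endothelium, stood at 373 CPM against 64.3 CPM. The elastic fibre gene Fbln5 stood at 538 CPM against 26 CPM and the arterial connexin gene Gja5 at 32.7 CPM against 3.44 CPM. EC3 is therefore described below by its label and by its marker genes, not as venous endothelium.

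**Figure D1:**
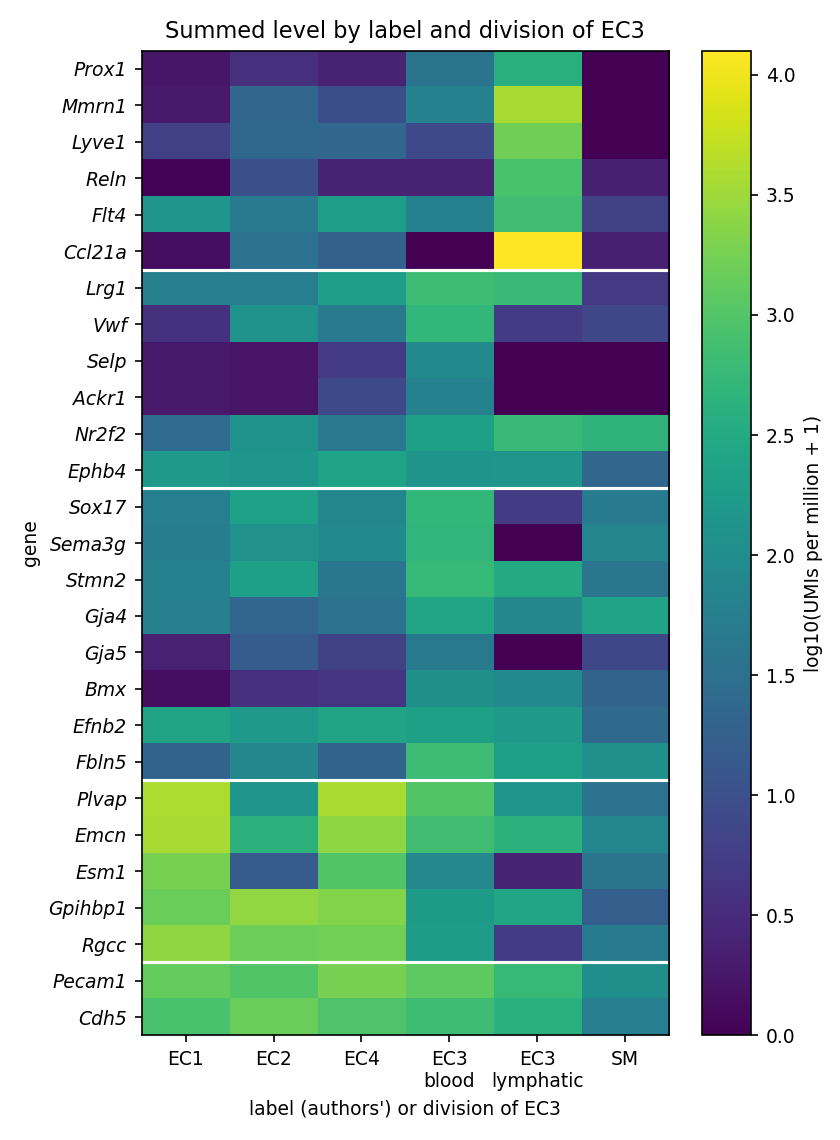
Summed level of 27 genes (rows: lymphatic, venule, arterial, capillary and pan-endothelial, separated by white lines) in the endothelial labels EC1, EC2 and EC4, the blood-marker and lymphatic-marker cells of EC3, and the mural label SM (columns), as log10(CPM + 1) in colour. Ccl21a is at 12598 CPM in lymphatic-marker cells and 0 CPM in blood-marker cells, while Sox17 is at 4.33 and 524 CPM.

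Lymphatic and blood vessel markers divided most of the cells, with some cells in between. A cell was called lymphatic-marker when UMIs of 6 lymphatic genes (Prox1, Mmrn1, Lyve1, Flt4, Reln, Pdpn) made up most of its UMIs of these and of 8 blood vessel genes (Vwf, Lrg1, Selp, Plvap, Emcn, Flt1, Cd34, Aqp1), with at least 2 UMIs of the leading list. By this rule 74 cells were lymphatic-marker (20.3%), 269 were blood-marker (73.7%) and 22 stayed undivided (6.03%). Of 346 cells with at least 2 UMIs over both lists, 247 had at most 10% lymphatic UMIs, 40 had at least 90% and 33 lay between 25% and 75%. At least 5 UMIs of each list were present in 47 cells. Lymphatic-marker cells had a median of 3748 UMIs, blood-marker cells 5136 and undivided cells 1366.

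Ccl21a, which the rule did not use, followed the division. It had a UMI in 63 of 74 lymphatic-marker cells (85.1%), with a median of 60.0 UMIs over the lymphatic-marker cells and up to 1386. It had a UMI in 0 of the other 291 EC3 cells, which allows a share of up to 1.03% of cells with a UMI by counting error alone and sets no limit on cells that express the gene. Lymphatic-marker cells with 0 Ccl21a UMIs lay in pools of all 3 groups. They included cells of aN1aN2 1 with 34, 21, 12 and 7 UMIs of the 6 lymphatic genes. Among the 9821 cells of all other labels, 26 held a Ccl21a UMI. Near-identical copies of the gene lie beside it in the genome. The copy Ccl21b had 0 UMIs, and how reads were shared among copies is not given in the sources used here. The plot of marker UMIs per cell shows the filled Ccl21a cells above the blood-marker cells along the lower axis.

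**Figure D2:**
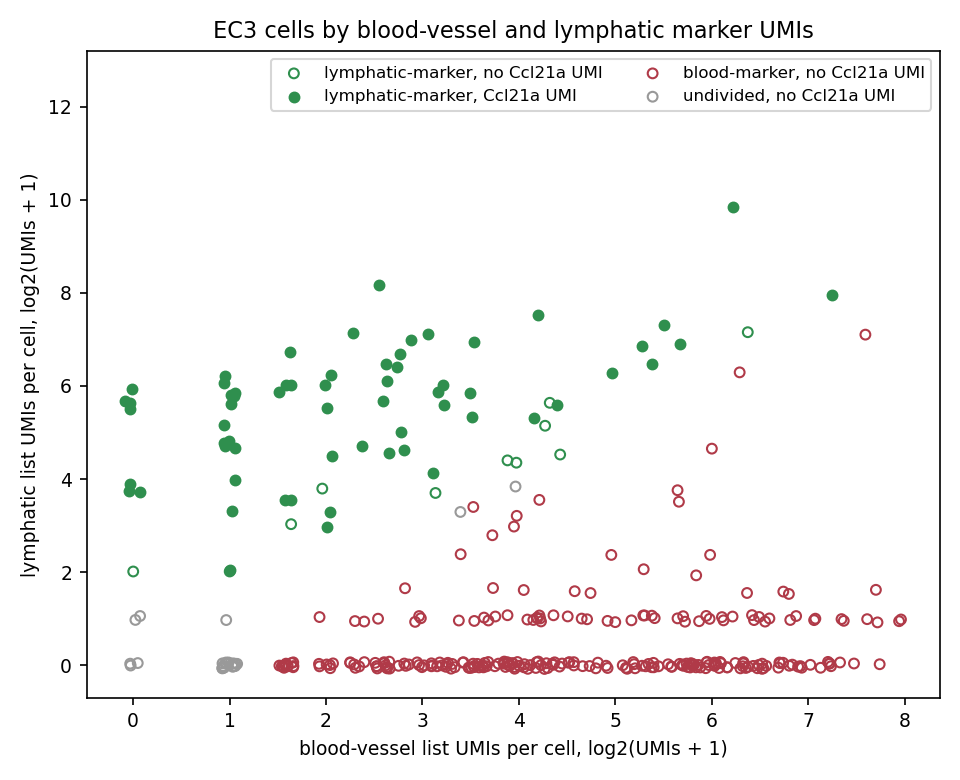
Each point is 1 of the 365 EC3 cells, placed by its UMIs of the blood vessel list (x axis) and of the lymphatic list (y axis), both as log2(UMIs + 1) with a small random offset. Filled points hold a Ccl21a UMI, and all 63 of them are lymphatic-marker cells (green), with blood-marker cells in red and undivided cells in grey.

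The other genes of the division were compared over the 4 pools with at least 10 cells of each kind (RW 1, aJ1aJ2 3, aJ1aJ2 4, aN1aN2 1). Of 4135 genes, 160 (3.87%) were at least 4-fold higher in lymphatic-marker cells in the pooled sums and higher in all 4 pools, and 288 (6.96%) were as much higher in blood-marker cells. Of the 13 measured lymphatic genes 12 were higher in lymphatic-marker cells. Of these, 6 are dividing genes, so that part of the count was favoured by the rule. Tbx1, a transcription factor of lymphatic development, was at 334 CPM against 16.1 CPM, and the transcription factor gene Maf at 1114 CPM against 70.9 CPM. Tgfbi, a secreted matrix protein, was at 818 CPM against 18.0 CPM, and the proprotein convertase gene Pcsk6 at 229 CPM against 6.61 CPM. Adgrg3, an adhesion G protein-coupled receptor, had 67 UMIs in lymphatic-marker cells and 3 in blood-marker cells, a ratio of 88.7 when scaled to all UMIs of each side (95% counting interval 29.1 to 441). Lcn2 was at 1707 CPM against 73.7 CPM.

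Among the genes with the largest folds on the blood side, Ly6c1, a surface antigen of blood endothelium, was at 3012 CPM in blood-marker and 15 CPM in lymphatic-marker cells. Sema3g had 501 UMIs against 0, at least 42.1-fold higher when 3 counts over the group are taken as the floor. Cytl1, a cytokine-like secreted protein, had 586 against 0 UMIs (at least 49.2-fold). Rgs5, a G protein regulator of pericytes that arterial endothelium can also carry, had 1317 against 2 UMIs, a ratio of 166 (45.8 to 1371). The arterial list, which holds no dividing gene, had 4 of 9 measured genes at least 4-fold higher in blood-marker cells. The venule list had 4 of 8, but Vwf and Selp among them are dividing genes, so that part of the count was favoured by the rule. Lrg1, a dividing gene that the label's markers count as venous, stood at 728 CPM in lymphatic-marker and 747 CPM in blood-marker cells. Nr2f2, the transcription factor shared by venous and lymphatic endothelium, was at 739 CPM and 251 CPM.

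Some genes of the Notch list differed between the sides. The ligand gene Jag1 was at 316 CPM in blood-marker and 26.3 CPM in lymphatic-marker cells. Jag2, another ligand gene, had 252 against 2 UMIs, a ratio of 31.7 (8.69 to 263). The target gene Hey1 was at 88.8 CPM against 18.8 CPM. The receptor Notch1 was similar on both sides, at 229 CPM in blood-marker and 281 CPM in lymphatic-marker cells, and the ligand Dll4 stood at 97.3 CPM and 71.3 CPM. Of 15 measured genes of the Notch list, 5 were at least 4-fold higher in blood-marker cells and 1 in lymphatic-marker cells.

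The blood-marker cells were themselves a mixture. With arterial UMIs (at least 2 UMIs over Sox17, Sema3g, Gja5, Stmn2, Gja4 and Fbln5) and venule UMIs (at least 2 over Vwf, Selp, Ackr1 and Sele), a split chosen after values were seen, 141 of 269 cells had arterial UMIs only (52.4%), 56 venule UMIs only (20.8%), 60 both (22.3%) and 12 neither. Genes that this split did not use differed between its ends. Dll4 was at 126 CPM in arterial-only and 3.30 CPM in venule-only cells, and Hey1 at 133 CPM and 9.89 CPM. Rgs5 was at 2082 CPM and 109 CPM. In the other direction, Lrg1 was at 177 CPM in arterial-only and 2301 CPM in venule-only cells, Nr2f2 at 109 CPM and 432 CPM, and Plvap at 413 CPM and 2977 CPM. Cytl1 was at 68.6 CPM and 798 CPM, and at 921 CPM over all blood-marker cells, which is above both ends.

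UMIs of mural cells, the smooth muscle cells and pericytes that wrap vessels, were found in many of these cells. At least 2 UMIs of the 14 mural genes were present in 102 EC3 cells, with a median of 9233 UMIs per cell and 5.2 pan-endothelial UMIs per 1000. The other 263 cells had a median of 3846 UMIs and 7.17 per 1000. Of the 25 EC3 cells over 20000 UMIs, 19 were in the mural group. Rgs5 had 2949 UMIs in the mural group and 13 in the other cells, a split that the choice fixes in part, since Rgs5 is on the mural list. A minimum of 2 UMIs is also met more easily by cells with more UMIs. No doublet caller was run, and the part of doublets in these values was not tested.

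The share of EC3 among all cells and among EC1 to EC4 did not differ detectably between the antibody groups. EC3 was 4.65%, 2.58% and 4.00% of all cells in RW 1 to 3, 2.92%, 3.93% and 3.26% in the aJ1aJ2 pools and 3.53%, 3.39% and 3.64% in the aN1aN2 pools. The RW pools alone spanned all other values. Among endothelial cells the share was 11.8% ± 3.04 (SD, n = 3) in RW, 10.2% ± 2.43 (SD, n = 3) in aJ1aJ2 and 10.4% ± 0.206 (SD, n = 3) in aN1aN2. The exact permutation p of these 6 differences was between 0.600 and 0.800 (two-sided), each 0.800 after adjustment over 9 share comparisons. Without EC4 cells in the denominator, the shares of aN1aN2 were 20.0%, 21.4% and 20.3% and those of RW 20.3%, 13.9% and 12.2%, so that difference turned from -1.46 to 5.14 points (exact permutation p 0.200, two-sided). The aJ1aJ2 pools were then at 13.9%, 16.7% and 10.1%, below all aN1aN2 pools, and the aN1aN2 minus aJ1aJ2 difference went from 0.159 to 7.01 points (exact permutation p 0.1). With 3 pools against 3 the smallest exact p is 0.1.

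Lymphatic-marker cells made up 19.0%, 17.6% and 14.3% of EC3 in RW 1 to 3. They made up 41.2%, 21.1% and 27.5% in aJ1aJ2 1, 3 and 4, and 29.7%, 3.33% and 12.0% in aN1aN2 1 to 3. All 3 aJ1aJ2 pools lay above all 3 RW pools, while the aN1aN2 pools lay on both sides of them. The aJ1aJ2 mean exceeded the RW mean by 13.0 percentage points, with the smallest exact permutation p the design allows (0.1, two-sided) and 0.800 after adjustment. With Plvap, Emcn, Flt1, Cd34 and Aqp1 left out of the blood list, the shares were 27.6%, 29.4% and 21.4% in RW and 41.2%, 25.4% and 29.4% in aJ1aJ2, which overlap, and the difference was 5.84 points (exact permutation p 0.500). It was 7.32 points without aJ1aJ2 1. The 3.33% of aN1aN2 2 is 1 cell of 30, with an exact 95% interval (Clopper-Pearson, counting error only) from 0.0844% to 17.2%. The difference between aN1aN2 and RW of -1.95 points turned to 3.90 points without aN1aN2 2, and was -10.0 points with the shorter blood list. That list holds only Vwf, Lrg1 and Selp, all called higher in aN1aN2 in the sums below. The -10.0 points therefore depend on genes that changed, and nothing is read from them.

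Venule-only cells were 14.6%, 17.9% and 11.8% of blood-marker cells in RW 1 to 3. They were 11.1%, 21.2% and 17.1% in the aJ1aJ2 pools and 45.5%, 26.9% and 27.3% in the aN1aN2 pools. All 3 aN1aN2 pools lay above the other 6. This split was made with its values in view and uses genes that changed in the sums below, so it was not tested.

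**Figure D3:**
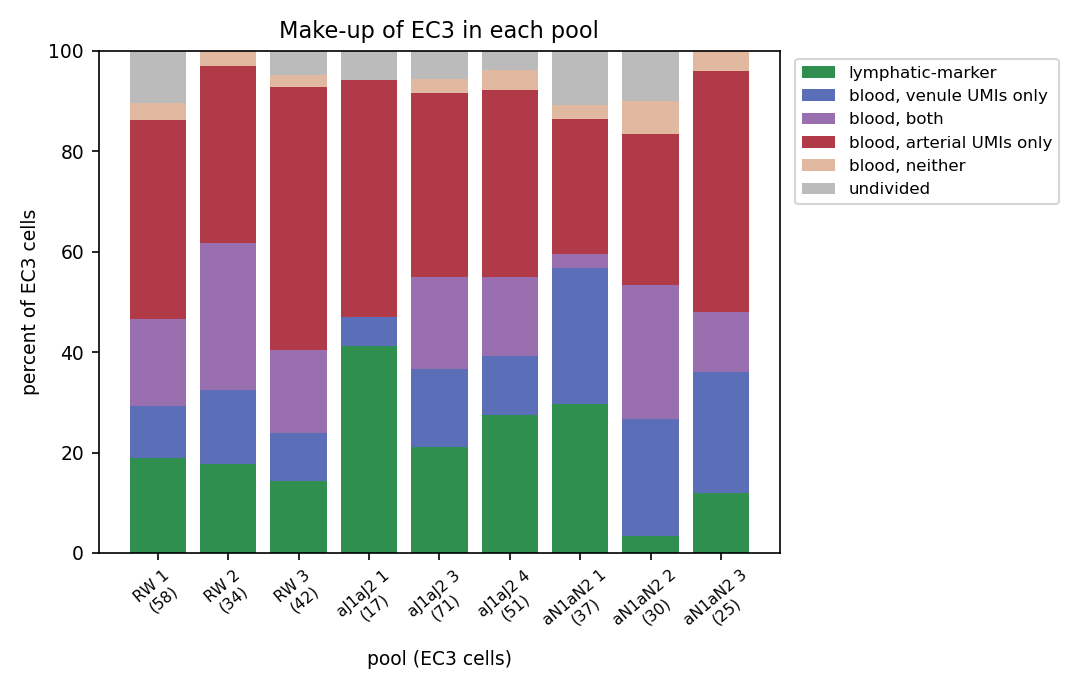
Percent of EC3 cells (y axis) in each pool (x axis, number of EC3 cells in brackets) that were lymphatic-marker, undivided, or blood-marker with venule UMIs only, arterial UMIs only, both or neither. The lymphatic-marker share runs from 3.33% in aN1aN2 2 to 41.2% in aJ1aJ2 1.

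For gene levels, UMIs were summed over the EC3 cells of each pool with at least 20 of them and compared by edgeR's quasi-likelihood method, with Benjamini-Hochberg adjustment over 6476 genes and an adjusted p under 0.05 as the call. The pool aJ1aJ2 1, with 17 cells, was left out, so aJ1aJ2 had 2 pools and the other groups 3. Levels from here on are CPM scaled by the trimmed mean of M-values, and changes are log2 values from the fit. A sum over cells cannot tell fewer cells of a kind from less RNA per cell. The antibodies bind proteins, so the transcripts of their targets do not check the labels. Notch1 was at 196, 259 and 198 CPM in RW, 319 and 275 CPM in aJ1aJ2 and 215, 256 and 251 CPM in aN1aN2, and was called in no contrast.

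Few genes of EC3 were called under ligand blockade, and 2 of the 3 that fell are on the mural list. Against RW, 4 of 6476 genes were called (0.0618%), 1 higher (0.0154%) and 3 lower (0.0463%), and 488 had an unadjusted p under 0.05. Rgs5 (ENSMUSG00000026678, chromosome 1, 169655501 to 169695813) stood at 2367, 1637 and 1792 CPM in RW 1 to 3 and at 219 and 168 CPM in aJ1aJ2 3 and 4. The groups were far apart, with a log2 change of -3.30 (SE 0.33, edgeR adjusted p 0.000262). Cox4i2, a respiratory chain subunit of pericytes, had 104 UMIs in RW and 1 in aJ1aJ2, a ratio of 51.1 (8.97 to 2036, adjusted p 0.0225). Mnd1, known for its part in meiotic recombination, had 96 and 2 UMIs, a ratio of 23.6 (6.35 to 197, adjusted p 0.0225). Galnt15, an enzyme that starts sugar chains on proteins, rose from 33.9, 40.4 and 29.4 CPM to 146 and 91.8 CPM (log2 change 1.79, SE 0.29, adjusted p 0.0225).

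Of 10 tested mural genes 2 fell, Rgs5 and Cox4i2, and the list's median change was -1.03 beside -0.02 over all genes. The summed level of the list ran from 3236 to 5253 CPM in the RW pools and from 1279 to 1908 CPM in the aJ1aJ2 pools, with UMIs of all 14 members in both groups. Cells with at least 2 mural UMIs were 36.2%, 35.3% and 40.5% of EC3 in RW and 29.4%, 19.7% and 19.6% in aJ1aJ2. Cells with at least 10 Rgs5 UMIs numbered 10, 5 and 4 in RW 1 to 3 and 2, 3 and 1 in aJ1aJ2 1, 3 and 4. Without the cells that held mural UMIs, which by that choice hold most Rgs5 UMIs, 0 of 3604 tested genes were called (edgeR, 291 at an unadjusted p under 0.05). Rgs5 was also not called without aJ1aJ2 3 (-3.52, adjusted p 0.0660, with the lone aJ1aJ2 pool assumed to vary like the other groups), without cells over 20000 UMIs (-2.47, 0.0921) or without cells holding macrophage or fibroblast UMIs (-2.13, 0.448). The part of mural cells in its change was not tested.

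The 6 genes that came next by p value missed the threshold. The glucocorticoid-induced chaperone gene Fkbp5 was at 12.0, 18.2 and 8.01 CPM in RW and 60.8 and 42.1 CPM in aJ1aJ2 (log2 change 1.98, adjusted p 0.0858). Zbtb16, another gene that glucocorticoids induce, was at 9.98, 8.08 and 13.4 CPM against 63.2 and 42.1 CPM (adjusted p 0.0958). The mitochondrial gene Ndufa4l2 and the sodium pump subunit gene Atp1b2 had log2 values of -2.67 and -1.93, Parm1 of -2.31 and Grrp1 of 1.07, with adjusted p between 0.0629 and 0.107. The pool aJ1aJ2 1 did not share the higher levels: unscaled, it held 48.6 CPM of Galnt15 and 8.10 CPM of Fkbp5, near the RW pools, and 409 CPM of Rgs5. It held 28.3 CPM of Cox4i2 (7 UMIs), near the 39.9 CPM of RW 2 on the same scale, and 0 UMIs of Mnd1. Galnt15 and Cox4i2 were not called when that pool was added (both adjusted p 0.304). Under receptor blockade Galnt15 stood at 146, 173 and 196 CPM (2.29, adjusted p 0.000230). No list other than the mural list had a called member under ligand blockade: of 17 tested genes of the Notch list 0 were called, as were 0 of 10 arterial, 0 of 8 venule and 0 of 13 lymphatic genes.

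The 4 cells low in endothelial UMIs bear on this contrast. Without them 11 genes were called, 4 higher and 7 lower. Rgs5 (log2 change -3.39, adjusted p 1.24e-05), Cox4i2, Mnd1 and Galnt15 were among them. Fkbp5 was then called at 2.24 (adjusted p 0.0167) and the clock repressor gene Nr1d1 at 1.37 (adjusted p 0.0489). The left-out aJ1aJ2 1 held 93.1 CPM of Nr1d1 (23 UMIs), within the 51.8 to 110 CPM of the RW pools, all unscaled. The complement gene C3 was called as higher, but it had 2, 0 and 0 UMIs in RW and 41 and 4 in aJ1aJ2. With the 4 cells kept, the count was 0 without aJ1aJ2 3, 1 without RW 1, 8 without RW 3 and 11 without RW 2.

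Genes of several vessel lists and of the glucocorticoid-induced list differed between aN1aN2 and RW in EC3. Against RW, 383 of 6476 genes were called (5.91%), 227 higher (3.51%) and 156 lower (2.41%), and the median change over all genes was -0.00. Most glucocorticoid-induced genes and all tested globin genes rose. Genes of arterial identity and of VEGF response fell in part, venule genes rose in part, and 9 of 10 tested mural genes fell. Both contrasts share the RW pools, so their values are given side by side and no overlap is drawn between them. Series C coincides with the group in every value that follows. The share of mitochondrial UMIs in EC3 also moved with the groups, at 5.56%, 4.79% and 4.94% in RW, 6.68% and 7.26% in the fitted aJ1aJ2 pools (4.80% in aJ1aJ2 1) and 4.09%, 4.18% and 4.10% in aN1aN2, and its part in these results was not tested.

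Of 17 tested genes of the Notch list, 2 rose and 3 fell. Dll4 (ENSMUSG00000027314, chromosome 2, 119325784 to 119335962), a ligand that tip and arterial cells present to their neighbours, stood at 106, 97.0 and 93.5 CPM in RW, 114 and 80.3 CPM in aJ1aJ2 and 25.8, 19.2 and 14.0 CPM in aN1aN2. Every aN1aN2 pool lay below every other pool. The change from RW was -2.34 (SE 0.37, edgeR adjusted p 0.00171), and it was called under all 22 alternative settings. Of these settings, all pools and a minimum of 10 cells were the same fit. Hey1, a Notch target and arterial transcription factor, stood at 93.8, 133 and 80.1 CPM in RW and 25.8, 12.8 and 69.8 CPM in aN1aN2 (-1.51, adjusted p 0.0490), and it was not called under 14 of 22 settings. The mural receptor Notch3 fell by 2.11 (adjusted p 0.0127). The ligand Dll1 rose from 57.9, 42.4 and 50.8 CPM to 146, 102 and 154 CPM (1.39, adjusted p 0.00688), and the glycosyltransferase gene Mfng rose by 1.47 (adjusted p 0.0309).

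Of 10 tested arterial genes, 4 fell and 0 rose, and the list's median change was -0.56. Besides Dll4 and Hey1 they were Stmn2 and Efnb2. Stmn2, a microtubule regulator of arterial endothelium, went from 555, 434 and 660 CPM to 206, 332 and 272 CPM (-1.01, adjusted p 0.0133). Efnb2, the ephrin ligand that marks arteries, went from 252, 244 and 235 CPM to 86.0, 115 and 175 CPM (-0.94, adjusted p 0.0282). Other arterial genes did not pass the test: Sox17 stood at 361, 247 and 508 CPM in RW and 456, 588 and 461 CPM in aN1aN2, and Sema3g had a log2 value of 0.25 (adjusted p 0.661). The arterial genes thus did not move together.

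Of 8 tested venule genes, 4 rose and 0 fell, with a median change of 0.74. Vwf (chromosome 6, 125546774 to 125686679) stood at 343, 242 and 296 CPM in RW, 547 and 482 CPM in aJ1aJ2 and 946, 888 and 384 CPM in aN1aN2. Its aN1aN2 pools lay above all RW pools, with a change of 1.32 (SE 0.27, adjusted p 0.00892). Selp, the selectin that slows leukocytes on venules, went from 35.9, 32.3 and 26.7 CPM to 301, 89.5 and 69.8 CPM (2.18, adjusted p 0.00898), with 119 and 161 CPM in the fitted aJ1aJ2 pools. The left-out aJ1aJ2 1 held 89.1 CPM of Vwf, unscaled, and 0 UMIs of Selp, below all RW pools for both genes. Lrg1 went from 421, 422 and 411 CPM to 3071, 1214 and 803 CPM (2.01, adjusted p 0.00346). The venous receptor gene Ephb4 rose by 0.89 (adjusted p 0.0431), and was not called under 16 of 22 settings, while Vwf was not called under 8. Venule-only cells were a larger part of the blood-marker cells in aN1aN2, as given above, and their part in these changes was not tested.

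Among capillary and VEGF genes both directions occurred. The fatty acid receptor gene Cd36 (chromosome 5, 17781690 to 17888801) stood at 425, 291 and 152 CPM in RW, 399 and 321 CPM in aJ1aJ2 and 2839, 2659 and 2046 CPM in aN1aN2. All 3 aN1aN2 pools lay far above the other 5 (3.11, SE 0.29, adjusted p 2.89e-05). Gpihbp1, which anchors lipoprotein lipase on capillaries, rose by 2.12 (adjusted p 0.000646) and Rgcc, a cell cycle regulator of capillaries, by 1.45 (adjusted p 0.0129). The VEGF receptor gene Kdr went from 445, 331 and 267 CPM to 120, 128 and 258 CPM (-1.04, adjusted p 0.0451). The lymphatic growth factor gene Vegfc fell by 1.27 (adjusted p 0.0106). The proteoglycan gene Esm1, which VEGF induces, had 123 UMIs in RW and 3 in aN1aN2, a ratio of 12.4 (4.16 to 61.2, adjusted p 0.00951). The angiopoietin receptor gene Tek rose by 0.79 (adjusted p 0.0322), and the ligand genes Vegfa and Vegfb did not pass the test.

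**Figure D4:**
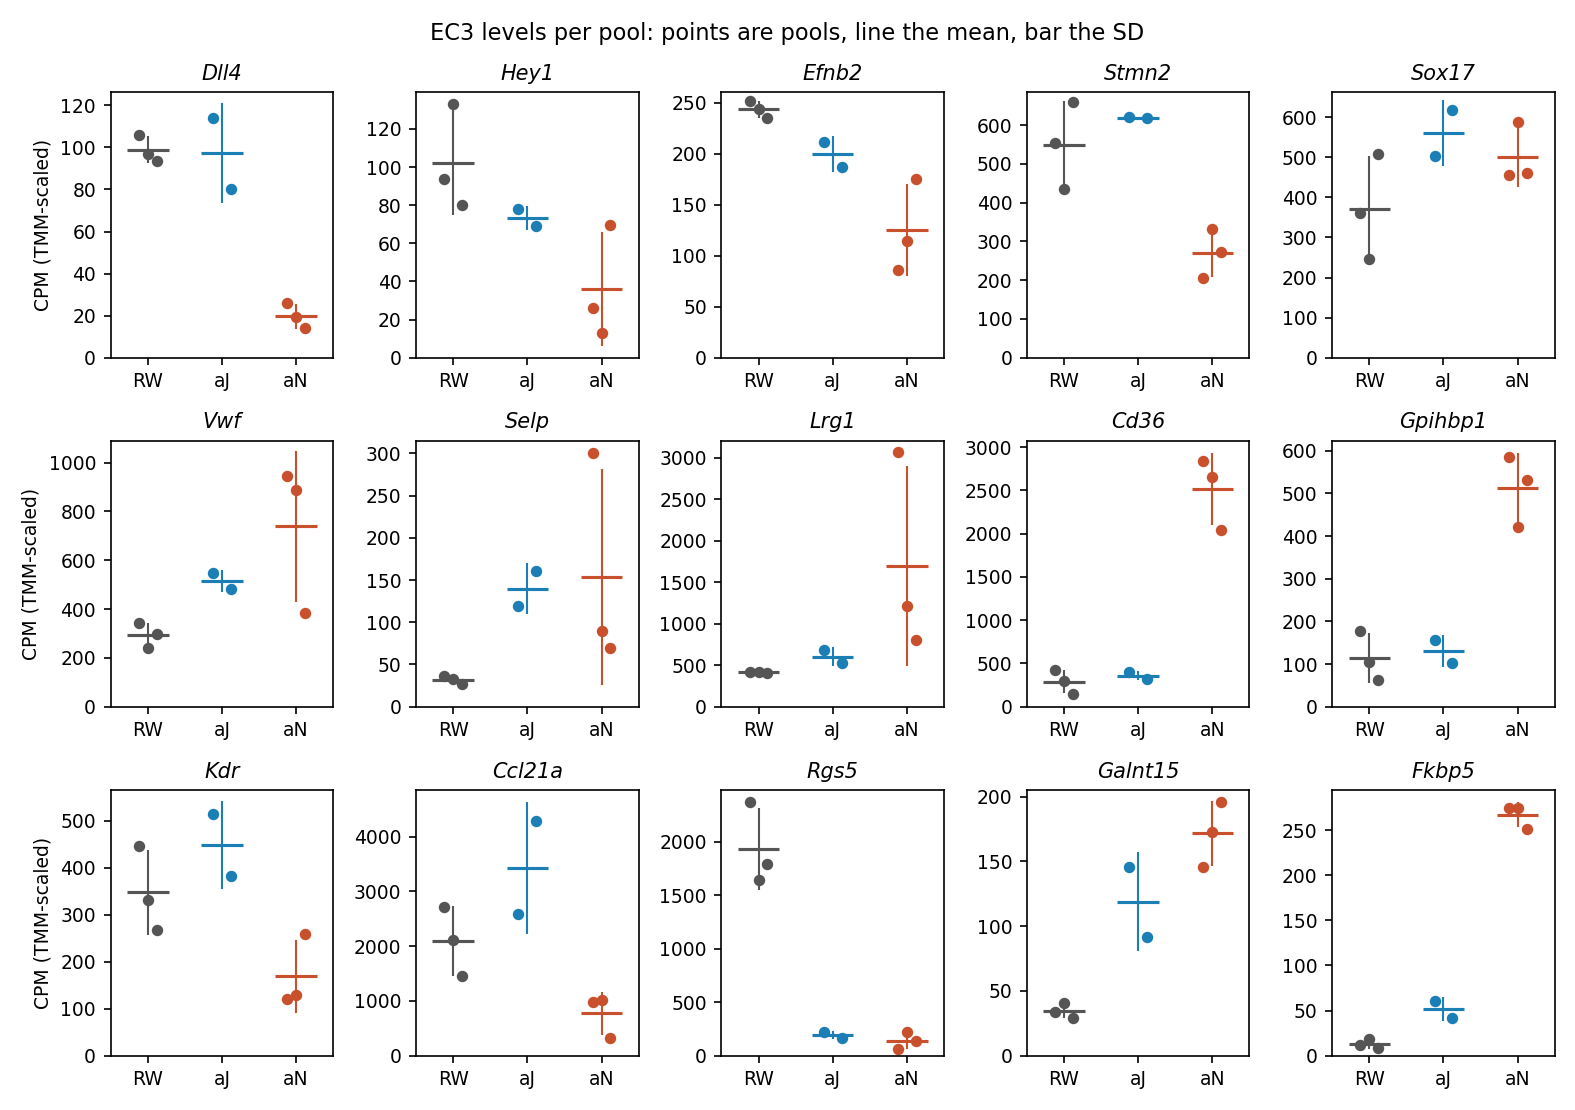
Level of 15 genes in the EC3 sum of each pool (CPM scaled by the trimmed mean of M-values, y axis) in RW (3 pools), aJ1aJ2 (aJ, 2 pools) and aN1aN2 (aN, 3 pools), with points for pools, the line at the mean and the bar at the SD. Dll4 is at 14.0 to 25.8 CPM in the aN1aN2 pools and at 80.3 CPM or more in the other 5, and Cd36 is at 2046 CPM or more against 425 CPM or less.

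Of the 15 glucocorticoid-induced genes, 11 rose and 0 fell, with a median change of 1.72 beside -0.00 over all genes. Glucocorticoids act through a nuclear receptor that switches on genes such as Fkbp5, Tsc22d3 and Zbtb16 in many cell types. Fkbp5 (chromosome 17, 28399094 to 28517527) stood at 275, 275 and 251 CPM in aN1aN2 against 12.0, 18.2 and 8.01 CPM in RW (4.31, SE 0.30, adjusted p 1.59e-06). The aN1aN2 and RW pools lay far apart, with the fitted aJ1aJ2 pools at 60.8 and 42.1 CPM in between. The left-out aJ1aJ2 1 held 8.10 CPM (2 UMIs, unscaled), near the RW pools. Tsc22d3, an inhibitor of inflammatory signalling, went from 254, 267 and 267 CPM to 1058, 850 and 698 CPM (1.72, adjusted p 0.000148). The cell cycle inhibitor gene Cdkn1a went from 132, 176 and 69.5 CPM to 766, 1010 and 594 CPM (2.63, adjusted p 9.69e-05). Klf9, Sgk1, Dusp1 and Nfkbia did not pass the test, with log2 values from 0.33 to 0.67.

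Mt1 and Mt2, neighbouring genes of metal-binding metallothioneins that glucocorticoids, metals and stress induce, rose together. Mt1 stood at 110, 275 and 259 CPM in RW and 473, 2429 and 1564 CPM in aN1aN2 (2.81, adjusted p 0.00235), and Mt2 at 16.0, 156 and 64.1 CPM against 353, 965 and 607 CPM (3.03, adjusted p 0.00259). Their 250 bases before the start site are shown because both hold the core of the metal response element, TGCACNC, searched on both strands and given in capitals. The sequences are RefSeq's for build GRCm38.p6, plus strand, Mt1 at chr8:94178839-94179088 and Mt2 at chr8:94172368-94172617.
Mt1: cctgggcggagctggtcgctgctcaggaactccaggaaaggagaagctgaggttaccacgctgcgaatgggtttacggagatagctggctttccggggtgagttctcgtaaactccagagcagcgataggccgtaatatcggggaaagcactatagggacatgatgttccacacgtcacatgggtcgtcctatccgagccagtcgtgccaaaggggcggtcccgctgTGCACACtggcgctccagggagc
Mt2: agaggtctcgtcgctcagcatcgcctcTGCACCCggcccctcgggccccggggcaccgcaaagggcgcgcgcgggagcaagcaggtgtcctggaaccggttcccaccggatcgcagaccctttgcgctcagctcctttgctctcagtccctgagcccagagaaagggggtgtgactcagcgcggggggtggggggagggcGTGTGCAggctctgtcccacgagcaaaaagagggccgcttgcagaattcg
Mt1 holds 1 match, 23 bases before the start, and Mt2 holds 2, the second on the opposite strand and so printed as its reverse complement. Of 32851 promoters of this length 10.4% hold the core, and a match is a description of the letters only.

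**Figure D5:**
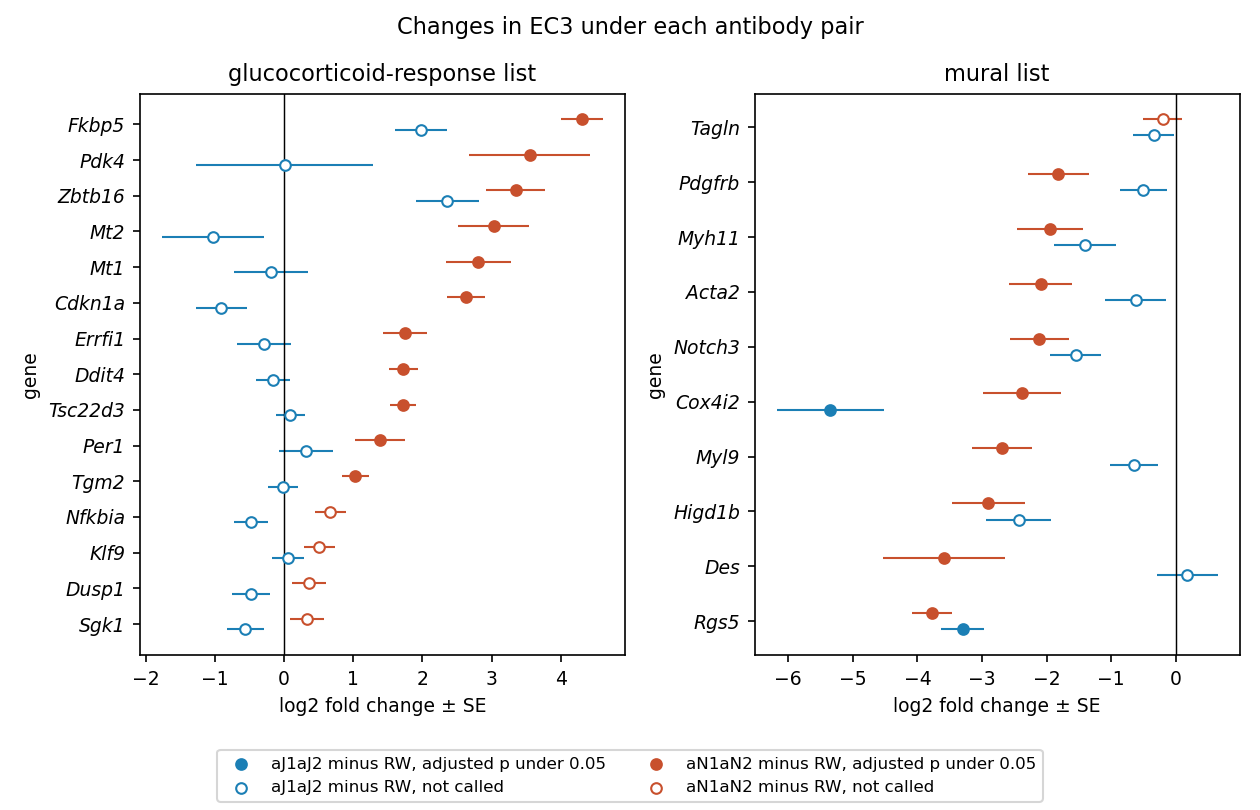
Log2 change from RW in EC3 (x axis, point ± SE) of the 15 glucocorticoid-induced genes (left) and the 10 tested mural genes (right), for aJ1aJ2 (blue) and aN1aN2 (orange), filled where the edgeR adjusted p was under 0.05. Under aN1aN2 11 genes on the left are filled and lie to the right of 0, and 9 on the right are filled and lie to the left of 0.

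In the sum over all EC3 cells, Ccl21a alone was called among lymphatic genes. Of 13 tested genes of the lymphatic list, 1 fell and 0 rose. Ccl21a stood at 2719, 2118 and 1450 CPM in RW, 2582 and 4282 CPM in aJ1aJ2 and 972, 1023 and 321 CPM in aN1aN2 (-1.44, SE 0.35, adjusted p 0.0222). All aN1aN2 pools lay below all others. Lymphatic-marker cells were 29.7%, 3.33% and 12.0% of EC3 in these pools and 14.3% to 19.0% in RW, and the part of that share in the change was not tested. Prox1, Mmrn1, Lyve1, Flt4, Reln and Pdpn did not pass the test, and each had overlapping RW and aN1aN2 pools. Mmrn1 stood at 858, 598 and 369 CPM in RW and 1247, 95.9 and 1040 CPM in aN1aN2, low only in aN1aN2 2 with its 1 lymphatic-marker cell.

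Matrix genes fell or did not pass the test. Of 16 tested, 5 fell: the matricellular gene Sparc by 0.95 (adjusted p 0.00601), Fbln2 by 1.13, the laminin genes Lama4 by 1.39 and Lamc1 by 1.33, and the collagen gene Col18a1 by 0.93. The IGF-binding protein gene Igfbp5 stood at 2924, 1400 and 1237 CPM in RW, 2492 and 2585 CPM in aJ1aJ2 and 422, 236 and 503 CPM in aN1aN2 (-2.27, adjusted p 0.000776). Of the pan-endothelial genes Pecam1 (1.19, adjusted p 0.00781), Esam (1.13) and Tek rose and 5 did not pass the test, among them Cdh5 at 0.21 (adjusted p 0.616).

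Genes of other cell types moved with the group. Of 10 tested mural genes 9 fell, with Rgs5 at 60.2, 217 and 133 CPM in aN1aN2 (-3.77, adjusted p 8.96e-06), and the summed mural list ran from 781 to 1243 CPM. Cells with at least 2 mural UMIs were 24.3%, 20.0% and 32.0% of EC3, and 1 cell over the 3 pools had 10 or more Rgs5 UMIs. All 4 tested globin genes rose (Hbb-bs 2.11, adjusted p 0.000226), with the erythroid list at 743 to 1130 CPM in aN1aN2 and 120 to 306 CPM in RW, and the parathyroid hormone gene Pth rose by 2.14 (adjusted p 0.00853). The fibroblast list was at 77.4 to 242 CPM against 382 to 1101 CPM, with Col1a1, Col3a1 and Dpt at 0 in aN1aN2. The 1101 CPM is RW 2, whose keratin cell held 365 UMIs of Dcn and 27 of Col3a1. The median of the RW pools was 431 CPM. The parts of free RNA and of other cells in these results were not tested. Without the cells holding mural UMIs 168 of 3604 tested genes were called. Without those holding macrophage or fibroblast UMIs 206 of 3677 were called, and Rgs5 was not (-0.35, adjusted p 0.821).

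By size, the 15 highest called genes whose pools did not overlap held further genes outside these lists. Ch25h, an oxysterol-forming enzyme, went from 12.0, 2.02 and 5.34 CPM to 275, 51.1 and 41.9 CPM (4.05). The protease inhibitor gene Serpina3n rose by 3.27, the kinase gene Map3k6 by 3.01, the receptor phosphatase gene Ptprj by 2.90, the antibacterial protein gene Pglyrp1 by 2.86, Tprn by 3.95 and the cytokine receptor gene Csf2rb2 by 2.81. Pdk4, which restrains glucose oxidation, rose by 3.55. Gm12840 had 17 UMIs in aN1aN2 and 2 in RW, a ratio of 28 (6.65 to 250), and the vesicle gene Doc2b had 15 and 2 (24.7, 5.75 to 223). These low counts set wide intervals.

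Among the 15 lowest, several were at or near 0 UMIs in aN1aN2. Nrip2 had 0 UMIs in aN1aN2 and stood at 95.8, 30.3 and 136 CPM in RW, at least 11.5-fold lower. The epoxide hydrolase gene Ephx3 was also at 0, at least 6.98-fold lower. The receptor kinase gene Axl had 1 UMI against 56 in RW, a ratio of 17.0 (2.93 to 683), and the transcription factor gene Tbx2 had 1 against 83 (25.2, 4.40 to 1007). Rarres2, the precursor of the chemoattractant chemerin, had 3 against 123 (12.4, 4.16 to 61.2). Mrvi1 and Des of muscle, H2-M9, Mnd1 and Ndufa4l2 also had 1 to 3 UMIs in aN1aN2. The non-coding transcript AY036118 fell by 3.52, and since it overlaps ribosomal RNA repeats its value is uncertain. Cd74 and Dcn were in this group, but 79.5% and 59.4% of their EC3 UMIs lay in the RW 2 keratin cell, and without the 4 cells low in endothelial UMIs Dcn was not called (adjusted p 0.370).

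Some of these calls depended on the settings and others did not. Fkbp5, Cd36, Mt1, Mt2, Cdkn1a, Gpihbp1, Tsc22d3, Ddit4 and Pecam1 were called under all 22 alternative settings and Zbtb16 under the 20 that gave it a value, whereas Kdr was not called under 10 and Ccl21a not under 5 of its 20. The count ran from 210 without aN1aN2 2 to 360 without RW 3, and was 235 without RW 1 and 246 without aN1aN2 3.

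Between the antibody pairs, 82 of 6476 genes differed (1.27%), 50 higher in aN1aN2 (0.772%) and 32 lower (0.494%). Here the RW pools set only the spread. Cdkn1a was higher in aN1aN2, at 72.9 and 61.2 CPM in aJ1aJ2 (3.54, SE 0.36, adjusted p 0.000266), and Cd36 by 2.80 (adjusted p 0.000522). Of the 15 glucocorticoid-induced genes, 9 were higher and 0 lower, with a median of 1.64. Rasd1, a dexamethasone-induced small GTPase, went from 17.0 and 49.7 CPM in aJ1aJ2 to 292, 294 and 258 CPM in aN1aN2 (3.19, adjusted p 0.000628). The steroid sulfate carrier gene Slc10a6 was higher by 2.70, the zinc carrier gene Slc39a14 by 2.29, the proteoglycan gene Spock2 by 2.20, Tmem252 by 3.23 and the cyclin gene Ccng2 by 2.51.

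On the lower side, Dll4 differed by -2.34 (adjusted p 0.00713), Stmn2 by -1.18 (0.0243), Kdr by -1.41 (0.0393), Ccl21a by -2.15 (0.00857) and Igfbp5 by -2.72 (0.000628), all by edgeR. Nr1d1 stood at 209 and 176 CPM in aJ1aJ2 and 51.6, 44.7 and 55.9 CPM in aN1aN2 (-1.93, adjusted p 0.0236), with 61.9, 44.5 and 118 CPM in RW. RW 1 and RW 2 of Nr1d1 lay near aN1aN2, while RW 3 and the left-out aJ1aJ2 1 (93.1 CPM, unscaled) lay between the groups. The contractile gene Tpm2 (-2.68), the chaperone gene Cryab (-2.49), Gucy1b1 (-2.17) and Art3 (-2.70) were also lower, as were Mfsd4a (-3.65), Pcsk5 (-2.07), Rab11fip2 (-2.11) and Sox4 (-1.97). Gm42418 and Gm26917, like AY036118, overlap ribosomal RNA and are uncertain. With 2 pools in aJ1aJ2, 20 genes were called without aJ1aJ2 3 and 19 without aJ1aJ2 4, against 136 without the 4 cells low in endothelial UMIs. It was 127 without RW 2, 124 without RW 3, 40 without aN1aN2 2 and 50 without aN1aN2 3.

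Within the blood-marker cells alone, 5640 genes were tested over pools with at least 10 such cells. Under ligand blockade 11 were called (0.195%), 3 higher (0.0532%) and 8 lower (0.142%). The higher genes were Fkbp5 (2.51), Galnt15 (1.75) and the insulin receptor gene Insr (1.39), and of the lower genes Rgs5 (-3.23, adjusted p 1.43e-05), Cox4i2 and Higd1b are on the mural list. The other lower genes were Mnd1, Ndufa4l2, Nsg1, Atp1b2 and Casq2. The count was 1 without aJ1aJ2 3 and 6 without RW 1. Under receptor blockade 444 were called (7.87%), 238 higher (4.22%) and 206 lower (3.65%). Between the antibody pairs 134 differed (2.38%), 68 higher in aN1aN2 (1.21%) and 66 lower (1.17%). Dll4 in these cells stood at 107, 134 and 90.9 CPM in RW, 134 and 93.8 CPM in aJ1aJ2 and 11.7, 13.4 and 17.4 CPM in aN1aN2, so it was low there with the lymphatic-marker cells left out (-2.90, adjusted p 0.000482). Efnb2 was lower by 1.20 and Stmn2 by 1.28, while Gja4 was called and Hey1 was not (adjusted p 0.0551). The venule gene Ephb4 rose (0.90). Vwf (1.24), Selp (2.1) and Lrg1 (2.04) were also called, but they are dividing genes, so the choice of cells depends on them. Of 7 lymphatic genes tested in these cells, Prox1, Maf and Sema3d were called as lower, and nothing is read from these calls. The cells were chosen for holding few lymphatic UMIs, and Prox1 is a dividing gene. Of the UMIs of the dividing lymphatic genes in blood-marker cells, 1 cell held 140 of 157 in RW 1 and 1 cell held 77 of 101 in RW 2, beside 193 and 79 blood vessel UMIs in the same cells. The aN1aN2 pools held 6, 11 and 16 such UMIs in all.

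The lymphatic-marker cells were too few for a test with at least 10 cells a pool, since 1 RW pool reached that number. With at least 5 cells, 7 pools entered, of which only aN1aN2 1 had received receptor blockade. Under ligand blockade 0 of 2516 genes were called by edgeR (0.00%), 183 had an unadjusted p under 0.05, and DESeq2 called 0. Ccl21a stood at 21260, 8305 and 26135 CPM in RW and 20903, 16091 and 19184 CPM in aJ1aJ2, which overlap. The low RW 2 value contains the keratin cell, which held 1 Ccl21a UMI among its 120349 UMIs. The rule placed this cell among the lymphatic-marker cells through 12 UMIs of Pdpn. A contrast with the single aN1aN2 pool has to borrow its spread from the other groups, so the calls of that fit are not used. The levels are a description of that pool, with Cd36 at 2193 CPM beside 78.0, 0 and 48.1 CPM in RW, and the fatty acid binding protein gene Fabp4 at 2666 CPM beside 172, 23.8 and 96.3 CPM. All 8721 Ccl21a UMIs of EC3 lay in lymphatic-marker cells. Over all EC3 cells aN1aN2 1 held 874 CPM of Ccl21a, beside 2657, 1993 and 1384 CPM in RW, all unscaled. Lymphatic-marker cells were 29.7% of EC3 in aN1aN2 1 and 14.3% to 19.0% in RW. The count under ligand blockade was 36 without RW 1 and 2 without RW 2.

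The change under ligand blockade was also compared with that in EC1 in a joint fit of 9686 genes, with the pool as a block. It differed in 1 gene (0.0103%), with 642 at an unadjusted p under 0.05. Aqp1, the water channel gene, stood in EC3 at 568, 570 and 323 CPM in RW and 901 and 797 CPM in aJ1aJ2, and in EC1 at 403, 446 and 371 CPM and 257 and 251 CPM. Both fitted aJ1aJ2 pools lay above the RW pools in EC3 and below them in EC1, with a difference of 1.51 (SE 0.23, edgeR adjusted p 0.0496). The pool aJ1aJ2 1, left out of the fit, lay below all RW pools in EC3, at 134 CPM (33 UMIs) beside 579, 578 and 326 CPM in RW, all unscaled, so the higher level did not hold over all 3 aJ1aJ2 pools. The count was 0 without RW 1 and without aJ1aJ2 3, 14 without RW 2 and 5 without RW 3. Rgs5 and Galnt15 did not show a difference past the threshold.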

How the data were processed

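Droplet 3' RNA libraries of 9 thyroid pools were analysed. The authors deposited raw UMI counts per gene and cell, and the submitters' processing notes name Cell Ranger and build GRCm38, with no version or role. An unquoted comma in 2619 lines of the cell annotation was repaired on reading. Groups and replicate numbers came from titles and treatment labels. RW 3 and aJ1aJ2 1 carry no number in their titles. Gene symbols came from a reference table (52403 of 52636 identifiers), coordinates from GENCODE M21 and promoters from RefSeq.

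The members and the 27 gene lists were chosen with earlier results of these data known. EC3 counts were summed per pool with at least 20 cells, filtered with filterByExpr, scaled by TMM and tested with edgeR 4.0.16 (quasi-likelihood, R 4.3.3, 1 fit over all groups). The test was checked on simulated counts. Nothing says that pools were separate experiments, so p-values measure the spread between pools. Shares were compared with exact permutation tests (SciPy 1.17.1). A fold against 0 UMIs is a bound that sets the empty group at 3 counts. In counting genes at least 4-fold higher between lymphatic-marker and blood-marker cells, sums under 3 counts were set at 3. Intervals are 95% and cover counting error only. Depth was 129251 to 525878 EC3 UMIs per pool. For the EC3 sums the text names, per contrast, all called genes up to 30 or else the 15 highest and 15 lowest without overlap, adding the 10 lowest p values where fewer than 6 were called, and up to 4 genes a list. Other genes were named after their values were seen. Alternatives included DESeq2 1.42.0, its size factors, no filter on low counts, each pool left out, series as a covariate and other cell sets. A joint fit with EC1 used the same test, with the pool as a block, since both sums came from the same pools. No doublet caller was run.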

Additional observations from a re-analysis of the deposited data

Results flagged for a closer look

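The change of Aqp1 under ligand blockade differed between EC3 and EC1, with a log2 difference of 1.51 (SE 0.23, edgeR adjusted p 0.0496 over 9686 genes). EC3 went from 568, 570 and 323 CPM to 901 and 797 CPM, higher in both fitted aJ1aJ2 pools, and EC1 from 403, 446 and 371 CPM to 257 and 251 CPM, lower in both. The pool aJ1aJ2 1, left out of the fit for its 17 EC3 cells, held 134 CPM of Aqp1 in EC3 (33 UMIs, unscaled), below all 3 RW pools. Aqp1 is 1 of the 8 blood vessel genes that divided the cells, and its own change in the EC3 fit did not pass the test (0.77, adjusted p 0.699). Without RW 1 or aJ1aJ2 3 no gene differed.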

How the results depend on the processing

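Counts of called genes moved with the settings, as did the number of genes tested. Under ligand blockade in EC3 (4 called) DESeq2 gave 9, no filter on low counts 104 (40 higher), all 9 pools or a minimum of 10 cells 2, series as a covariate 10 (1 with a minimum of 10 cells), equal cell numbers 1, no mural UMIs 0, no macrophage or fibroblast UMIs 1, no cells over 20000 UMIs 0, blood-marker cells 11, those with arterial UMIs 11, and leaving out the 4 cells low in endothelial UMIs 11. Of the 4 genes, 0 kept the call under every setting. Leaving out 1 pool gave 0 to 11. Under receptor blockade 383 of 6476 tested genes were called (59.3% higher). No filter gave 594 of 17722 (251 higher, 343 lower), and all pools or a minimum of 10 cells 234 of 5364. Equal cell numbers gave 218 of 3599, no mural UMIs 168 of 3604 and no macrophage or fibroblast UMIs 206 of 3677. These counts rest on different numbers of tested genes. Leaving out 1 pool gave 210 to 360. Of 99 called genes of receptor blockade that were followed, 31 kept the call in every setting with a value. RW and aN1aN2 share replicate numbers 1 and 2. Over those 4 pools the fit with the replicate block called 315 and the same pools without it 169. Same-numbered deviations were uncorrelated (-0.0271 over 3656 genes), but with only numbers 1 and 2 this cannot decide whether equal numbers mark a pairing. Between antibody pairs (82) DESeq2 gave 140, no filter 268 (108 higher, 160 lower), no cells over 20000 UMIs 169, blood-marker cells 134, leaving out the 4 cells 136, and leaving out 1 pool 19 to 127 (7 higher, 13 lower without aJ1aJ2 3). No filter gave 89 in lymphatic-marker cells (0, and 0 to 36 leaving out 1 pool), 77 in blood-marker cells (11, and 1 to 15), and 53 for the difference from EC1 (1, and 0 to 14), which was 6 against EC2. Shares, in percentage points with 1 pool left out, ran from -0.951 to 0.0819 (aJ1aJ2 minus RW), -0.801 to 0.232 (aN1aN2 minus RW) and -0.0773 to 0.431 (aN1aN2 minus aJ1aJ2) of all cells, and -2.90 to 0.0613, -2.75 to 0.220 and -1.08 to 1.35 of endothelial cells. The aN1aN2 minus RW share of endothelial cells was 5.14 without EC4 and 0.211 in cells with at least 1000 UMIs. The aN1aN2 minus aJ1aJ2 share was 7.01 without EC4. The lymphatic-marker share ran from -9.30 to 3.90 for aN1aN2 minus RW, 7.32 to 17.3 for aJ1aJ2 minus RW and -22.3 to -9.05 for aN1aN2 minus aJ1aJ2. The shorter blood list gave 5.84 for aJ1aJ2 minus RW and -10.0 for aN1aN2 minus RW. Its genes Vwf, Lrg1 and Selp were all called higher in aN1aN2, so the -10.0 depends on them. Single genes turned in blood-marker cells or those with arterial UMIs: Igfbp5 under ligand blockade (-2.17), and under receptor blockade Mmrn1 (-7.41), Maf (-1.98 and -2.37), Sema3d (-3.22 and -6.50), Errfi1 (-0.57) and Lcn2 (-0.59 and -1.24). Cldn5 was at -0.72 without macrophage or fibroblast UMIs. Blood-marker cells were chosen for few lymphatic UMIs, and in them 1 RW 1 cell and 1 RW 2 cell held 140 of 157 and 77 of 101 UMIs of the dividing lymphatic genes. Fewer genes and cells entered those fits, and beyond that the cause was not tested.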
